A study of Homo sapiens with 21 samples.

Results

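The comparison described here is of wild type MV4-11 cells after 6 h of ironomycin with wild type MV4-11 cells given the solvent DMSO, with 3 libraries in each group, 6 of the 21 libraries of the series. MV4-11 is a human leukaemia cell line with features of both B-lymphoid and myelomonocytic cells, and it carries a rearranged KMT2A gene. Ironomycin, also labelled AM5, is a semisynthetic derivative of the polyether salinomycin, and the study used it to lower mitochondrial iron. The other 15 libraries hold wild type cells after 24 h of ironomycin and 2 knockout lines, HK2 and PGP, in DMSO or after 24 h of ironomycin. They enter the results through the choice of genes tested and the shared estimate of the spread and, for wild type at 24 h, in 1 comparison at the end. How long the DMSO cells were kept is not in the labels, so the time in culture cannot be told apart from the treatment. Whether the replicates are separate cultures is not stated either, and the p-values cover only the spread of these libraries, which may be technical. Ends of polyadenylated transcripts were counted, and levels are CPM, counts scaled to library size and composition. Of 54042 genes in the table, 11610 had enough counts to be tested. Differences are log2 fold changes of ironomycin over DMSO ± SE from edgeR's quasi-likelihood fit, and a gene is said to rise, to fall or to be called where its p, adjusted over all genes tested after Benjamini and Hochberg, was under 0.05.

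When a cell is short of amino acids or its mitochondria or endoplasmic reticulum are disturbed, kinases phosphorylate the translation factor eIF2α. Most translation then slows while the mRNA of the transcription factor ATF4 is translated, and ATF4 switches on genes for amino acid synthesis, uptake and tRNA charging together with CHOP (DDIT3) and TRIB3. Mitochondrial defects are known to reach this pathway through the protease OMA1, its substrate DELE1 and the kinase HRI (EIF2AK1). A separate pathway, the heat shock response, is run by HSF1, which drives cytosolic chaperone genes, and iron itself is a part of iron-sulfur clusters, heme and the dioxygenases that mark HIF-1α for degradation.

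Promoter sequences are shown for genes of both pathways, because the first rose and the second fell at 6 h. The windows are from RefSeq on GRCh38.p14, within 250 bases before to 50 bases after each start site, written 5′ to 3′ on the strand of the gene. Capitals in the first 6 mark the ATF4 composite element, TGATGNAA on either strand. They belong to CHAC1 (chr15:40953232-40953299, plus strand), ATF3 (chr1:212565186-212565253, plus strand), AARS1 (chr16:70289656-70289723, minus strand), CARS1 (chr11:3057388-3057455, minus strand), NARS1 (chr18:57621787-57621852, minus strand) and TARS1 (chr5:33440937-33441004, plus strand). Capitals in the last 3 mark the heat shock element, GAANNTTCNNGAA on either strand. These belong to HSPA8 (chr11:123062149-123062386, minus strand), which holds 2 matches, DNAJA1 (chr9:33025246-33025318, plus strand) and CHORDC1 (chr11:90223057-90223139, minus strand), where 3 matches overlap each other.
CHAC1: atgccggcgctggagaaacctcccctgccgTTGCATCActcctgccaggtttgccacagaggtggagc
ATF3: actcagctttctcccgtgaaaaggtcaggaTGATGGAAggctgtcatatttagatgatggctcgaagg
AARS1: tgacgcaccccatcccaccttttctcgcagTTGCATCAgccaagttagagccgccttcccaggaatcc
CARS1: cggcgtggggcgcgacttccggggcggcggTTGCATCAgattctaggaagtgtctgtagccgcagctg
NARS1: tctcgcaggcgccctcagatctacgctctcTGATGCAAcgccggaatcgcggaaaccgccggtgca
TARS1: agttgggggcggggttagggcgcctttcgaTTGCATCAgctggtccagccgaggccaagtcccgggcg
HSPA8: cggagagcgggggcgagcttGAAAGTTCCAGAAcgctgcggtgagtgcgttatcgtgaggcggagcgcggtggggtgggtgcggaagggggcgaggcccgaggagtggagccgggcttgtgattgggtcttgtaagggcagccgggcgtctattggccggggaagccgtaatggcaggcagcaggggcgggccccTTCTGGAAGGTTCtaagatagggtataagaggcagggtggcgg
DNAJA1: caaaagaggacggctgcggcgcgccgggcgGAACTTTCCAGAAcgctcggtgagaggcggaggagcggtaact
CHORDC1: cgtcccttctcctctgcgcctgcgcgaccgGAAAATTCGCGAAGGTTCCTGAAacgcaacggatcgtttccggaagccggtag

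The ATF4 element stood in 6 of the 16 promoters at hand of cytosolic aminoacyl-tRNA synthetases (37.5%), in 4 of 13 of amino acid synthesis enzymes (30.8%), in 3 of 14 of amino acid transporters (21.4%) and in 2 of 18 of regulators of the integrated stress response (11.1%). It stood in 1003 of all 27305 promoters (3.67%) and in 146 of the 8703 promoters of genes tested here (1.68%). Of the 15 largest rises given below, 9 had a promoter at hand, and 2 of these held the element (22.2%), DNASE2 and NLRP12. Among the synthetases with the element, AARS1, CARS1, NARS1 and TARS1 rose at 6 h, whereas IARS1 (0.01 ± 0.35, edgeR adjusted p = 0.986) and MARS1 (0.38 ± 0.21, edgeR adjusted p = 0.204) were not called. The heat shock element stood in 5 of 23 promoters of cytosolic chaperones (21.7%), against 133 of all promoters (0.487%) and 23 of those of genes tested (0.264%). Besides the 3 shown it was found in DNAJB6, which fell (-0.36 ± 0.11), and in SERPINH1, which was not called (0.17 ± 0.20). A match describes the letters in these windows and does not show that a factor was bound. Whether genes with an element changed more often than others was not tested.

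Depth was similar in both groups. Total counts were 4681898, 4754779 and 5255441 in the ironomycin libraries, against 4838014, 4823817 and 6069264 in the DMSO libraries, so that 3 counts corresponded to 0.562 to 0.655 CPM and 0.498 to 0.626 CPM. No 2 replicates agreed within sampling noise. The lineage of the line could be checked on CD33 (76.8 ± 3.45 CPM under ironomycin and 81.9 ± 0.878 CPM in DMSO, SD, n = 3 each), FLT3 (352 ± 152 CPM under ironomycin and 287 ± 27 CPM in DMSO) and the KMT2A fusion targets HOXA9 (58.4 ± 12.4 CPM under ironomycin and 58.9 ± 7.77 CPM in DMSO) and MEIS1 (48.9 ± 3.82 CPM under ironomycin and 42.6 ± 6.47 CPM in DMSO). Several defining myeloid and B-lymphoid markers were at or near 0: CD14 had 0 counts under ironomycin and 1 in DMSO over 3 libraries, LYZ 4 and 17, CD79A 4 and 2, and CD68 and CD79B 0 in all 6 libraries. Of 11 T and natural killer cell markers 2 were abundant enough to test, of 11 erythroid markers 1, and of 13 epithelial and stromal markers 1, with EPCAM, CDH1 and PECAM1 at 0 counts in all 6 libraries.

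Replicate 2 of the ironomycin group lay apart from replicates 1 and 3. Among 5854 genes of at least 20 CPM in the group, the SD of its log2 deviation from the mean of the other pair was 0.563, against 0.318 for replicate 1 and 0.365 for replicate 3, and against 0.199 to 0.246 in the DMSO group. The deviation ran mostly downward: 309 genes were at least 2-fold below the other pair and 18 at least 2-fold above, compared with 13 and 46 genes for replicate 1 and 14 and 90 for replicate 3. Those 309 genes had a median GC content of 35.3% over the last 300 bases of the transcript, the 18 genes 53.3%, and all 5854 genes 39.7%. Across these genes, which are not independent replicates, the deviation of replicate 2 and this GC content had a Spearman rho of 0.413, and in the DMSO libraries rho was 0.219, -0.005 and -0.201. Of the 18 high genes 8 were pseudogenes, against 13 of the 309 and 138 of all. The part of base composition and of pseudogene reads in the deviation was not tested.

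**Figure D1:**
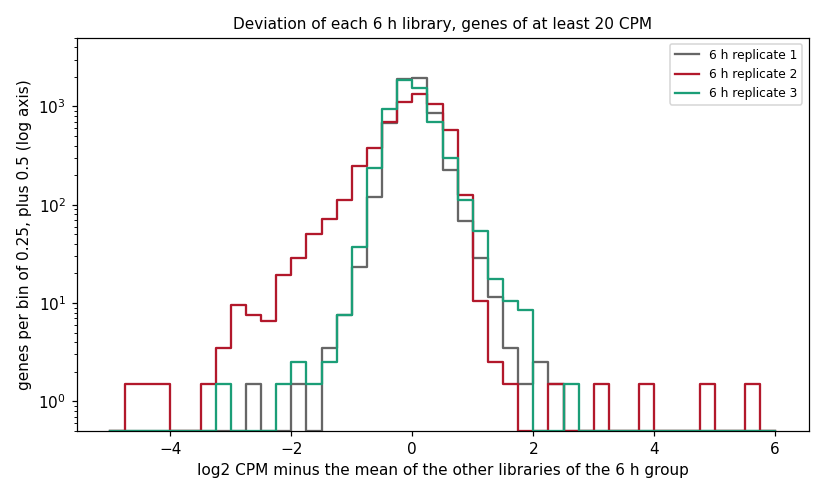
Number of genes (vertical, log axis, 0.5 added) by log2 deviation of each ironomycin 6 h library from the mean of its other pair of replicates (horizontal, bins of 0.25), for the 5854 genes of at least 20 CPM. Replicate 2 has a tail to the left that replicates 1 and 3 lack, with 48 genes at least 4-fold below.

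The genes farthest from the rest of the group show the size of these deviations. PLAU, the urokinase protease, stood at 56.6, 2.18 and 71.2 CPM in the ironomycin libraries, against 35.9, 42.2 and 62.4 CPM in the DMSO libraries. NCSTN, a subunit of gamma-secretase, stood at 55.1, 1.96 and 44.6 CPM in the ironomycin libraries, against 26.5, 33.6 and 42.6 CPM in the DMSO libraries. TXN, thioredoxin, stood at 146, 20.1 and 208 CPM in the ironomycin libraries, against 179.6, 181 and 329.8 CPM in the DMSO libraries. In all of these replicate 2 was the only low library, and none of them was called against DMSO. At the other end, the ribosomal pseudogene RPS26P47 stood at 2.77, 144 and 1.87 CPM in the ironomycin libraries, against 2.09, 2.3 and 3.15 CPM in the DMSO libraries, so that replicate 2 alone was high. The pseudogenes GAPDHP1, RPL41P2, RPL5P34 and PTMAP2 followed it and the pseudogene RPSAP15 and C5orf15 were among the 5 lowest, and reads of such copies cannot be assigned to 1 locus with certainty.

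Among genes of at least 20 CPM called without replicate 2, 583 were higher and 904 lower. Their median log2 difference from DMSO in replicate 2 was 0.664 for the higher genes, against 0.622 in replicates 1 and 3, and -0.583 for the lower genes, against -0.570. In replicate 2 the sign matched for 89.7% of the higher and 91.9% of the lower genes. For genes called without replicate 1, its medians were 0.496 and -0.506, against 0.639 and -0.679, with 97.3% and 98.3% matching. Without replicate 3, its medians were 0.452 and -0.491, against 0.6115 and -0.6997, with 94.5% and 96.6% matching. Replicate 2 is set here against the same DMSO libraries as replicates 1 and 3, so these values are not independent of the calls. With weights estimated per library, replicate 2 received 0.225 and the others between 1.06 and 1.89. Counts of list members are therefore given also without this library, and with the 6 libraries fitted alone where that moved a count by over 1.5 times. For all genes tested the matching shares, higher and lower, were 10.9% and 11.1%, or 8.77% and 9.41% without replicate 2. With the 6 libraries fitted alone they were 5.96% and 5.4%.

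After 6 h of ironomycin 2556 genes were called, 22.0% of those tested. Of these 1271 were higher (10.9%) and 1285 lower (11.1%). The rises were larger: 672 genes changed at least 2-fold (5.79%), 460 of them higher (3.96%) and 212 lower (1.83%), with 106 higher and 17 lower at least 4-fold, and 33 and 4 at least 8-fold. The median size of a called change was 0.80 on the log2 scale among higher genes and 0.66 among lower genes, and the median over all genes tested was 0.02. The libraries of both groups did not overlap for 1177 of the higher and 1234 of the lower genes, as for 34.4% of all genes tested. Without replicate 2, 2145 genes were called (18.2%; 8.77% higher and 9.41% lower), among them 873 of the 1271 and 933 of the 1285. The fit of these 6 libraries alone called 1212 (11.4%; 5.96% higher and 5.4% lower), among them 631 and 576. Long noncoding RNAs were called higher in 84 of 751 cases (11.2%) and lower in 27 (3.60%), with a median log2 fold change of 0.23, whereas protein-coding genes were higher in 1129 and lower in 1233 of 10126.

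**Figure D2:**
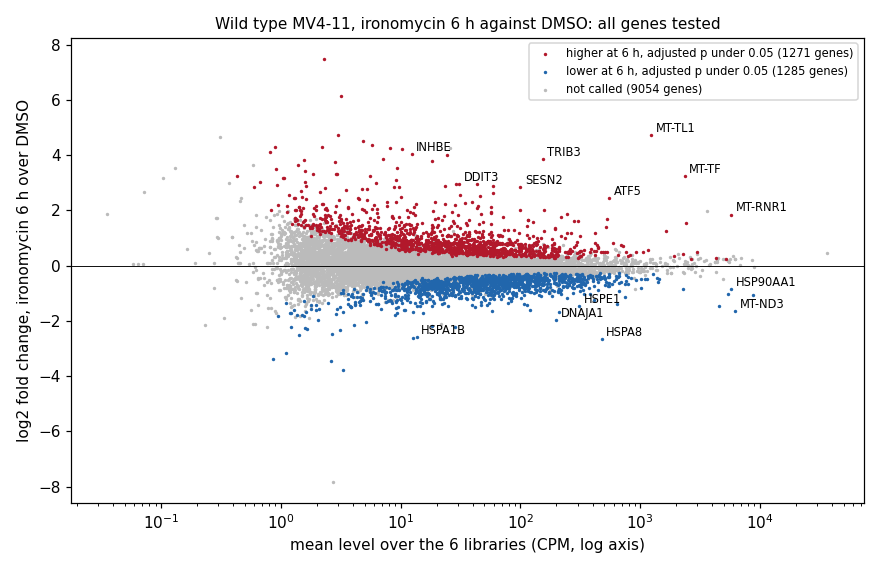
Log2 fold change of ironomycin 6 h over DMSO (vertical) against the mean level of the 6 libraries in CPM (horizontal, log axis) for all 11610 genes tested, red where called higher, blue where called lower, grey where not called. Stress response genes such as TRIB3 and ATF5 and the mitochondrial MT-TL1 lie at the top, and the chaperones HSPA8, HSPA1B and DNAJA1 at the bottom.

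The 15 largest rises among called genes of at least 5 CPM, whose libraries by that rule did not overlap, held 7 genes of the integrated stress response lists and 3 mitochondrial tRNAs. NLRP12 and ORM1, given below with genes of innate immunity, are counted among the 7 because they were placed on such a list. The lists were chosen with earlier results of these data known, so this count is a description and no test of the pathway. TRIB3, a pseudokinase that restrains AKT and ATF4, stood at 233, 315 and 313 CPM in the ironomycin libraries, against 12.9, 20.2 and 25.2 CPM in the DMSO libraries (3.87 ± 0.24). DDIT3, which encodes the transcription factor CHOP, stood at 40.8, 57.8 and 64.3 CPM in the ironomycin libraries, against 6.06, 7.93 and 6.97 CPM in the DMSO libraries (2.96 ± 0.21). NUPR1, a small stress-induced chromatin protein, stood at 17.3, 16.8 and 12 CPM in the ironomycin libraries, against 0.835, 1.04 and 0.498 CPM in the DMSO libraries (4.27 ± 0.35). In all 3 the lowest ironomycin library was several times the highest DMSO library, and replicate 2 lay within or near the range of the other pair. The secreted hormones followed. INHBE, an inhibin subunit, stood at 23.9, 24.4 and 21.7 CPM in the ironomycin libraries, against 1.25, 1.46 and 1.49 CPM in the DMSO libraries (4.03 ± 0.35). ADM2, a peptide of the calcitonin family, stood at 42.5, 53.3 and 40.9 CPM in the ironomycin libraries, against 3.13, 2.3 and 2.99 CPM in the DMSO libraries (4.0 ± 0.30). Replicates of INHBE differed little, whereas ADM2 was highest in replicate 2.

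Genes of innate immunity and of the lysosome were also among these rises. NLRP12, a cytosolic receptor that tempers inflammatory signals in myeloid cells, stood at 10.2, 10.9 and 12.2 CPM in the ironomycin libraries, against 0.209, 0.417 and 0.829 CPM in the DMSO libraries (edgeR adjusted p = 4.3e-07), and no fold is given because its mean in DMSO, 0.485 CPM, lay under the level of 3 counts. TREML2, a surface receptor of myeloid and lymphoid cells, stood at 14.7, 20.7 and 13.9 CPM in the ironomycin libraries, against 0.626, 1.67 and 3.15 CPM in the DMSO libraries (3.10 ± 0.37). IFIT3, an interferon-induced protein, stood at 38.4, 7.64 and 12.4 CPM in the ironomycin libraries, against 1.46, 0.417 and 1.16 CPM in the DMSO libraries (4.21 ± 0.68), so its level under ironomycin was set largely by replicate 1. DNASE2, the acid DNase of lysosomes, stood at 71.1, 78.6 and 83 CPM in the ironomycin libraries, against 8.56, 5.84 and 14.6 CPM in the DMSO libraries (2.97 ± 0.23). P2RX7, a cation channel opened by extracellular ATP, stood at 42.5, 65.7 and 46.3 CPM in the ironomycin libraries, against 5.64, 8.56 and 5.64 CPM in the DMSO libraries (2.96 ± 0.21). DNASE2 varied less, relative to its mean, among ironomycin libraries than among DMSO libraries. DUSP5, a nuclear phosphatase of ERK, stood at 11.3, 8.08 and 10.7 CPM in the ironomycin libraries, against 2.09, 0.417 and 0.663 CPM in the DMSO libraries (3.25 ± 0.50). ORM1, an acute phase protein, stood at 8.11, 16.2 and 15.6 CPM in the ironomycin libraries, against 0.209, 1.04 and 1.33 CPM in the DMSO libraries (3.86 ± 0.55), and since ORM2 is nearly identical its reads may be split between both genes. At least 1 DMSO library held 3 counts or fewer of NUPR1, MT-TV, TREML2, IFIT3, DUSP5 and ORM1, so the size of these folds is uncertain.

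The 15 largest falls held 3 chaperones and genes of DNA replication, mitochondria, iron and the myeloid lineage. HSPA8, the constitutive HSP70 chaperone, stood at 177, 38.8 and 173 CPM in the ironomycin libraries, against 770.1, 666 and 1029 CPM in the DMSO libraries (-2.66 ± 0.35). HSPA1B, an inducible HSP70 with the near-identical copy HSPA1A, stood at 3.2, 3.06 and 5.25 CPM in the ironomycin libraries, against 23, 20.9 and 26.4 CPM in the DMSO libraries (-2.59 ± 0.25). DNAJA1, an HSP40 partner of HSP70, stood at 89.4, 55 and 96 CPM in the ironomycin libraries, against 331, 300.3 and 318 CPM in the DMSO libraries (-1.98 ± 0.15). Replicate 2 was the lowest library for all 3, far below the other pair for HSPA8, which without it stood at -2.23 (edgeR adjusted p = 6.6e-07). HPDL, a mitochondrial enzyme of coenzyme Q head group synthesis, stood at 4.48, 2.62 and 3.56 CPM in the ironomycin libraries, against 21.3, 22.5 and 22.2 CPM in the DMSO libraries (-2.62 ± 0.27). RPP25, a protein subunit of RNase P and RNase MRP, stood at 1.07, 2.4 and 2.44 CPM in the ironomycin libraries, against 6.89, 10.2 and 7.63 CPM in the DMSO libraries (-2.04 ± 0.35). PPARGC1B, a coactivator of mitochondrial biogenesis, stood at 8.97, 4.58 and 7.87 CPM in the ironomycin libraries, against 25.5, 24.6 and 21.1 CPM in the DMSO libraries (-1.72 ± 0.25). In RPP25 replicate 1 was the lowest, in the other pair replicate 2.

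FEN1, the flap endonuclease of lagging strand synthesis, stood at 118, 65 and 120.2 CPM in the ironomycin libraries, against 314, 332 and 318 CPM in the DMSO libraries (-1.67 ± 0.16). CDC25A, the phosphatase that activates cyclin-dependent kinases at S phase entry, stood at 29.9, 25.1 and 30.7 CPM in the ironomycin libraries, against 83.7, 85.4 and 95.7 CPM in the DMSO libraries (-1.63 ± 0.14). DDIAS, a suppressor of apoptosis after DNA damage, stood at 7.47, 1.96 and 6.19 CPM in the ironomycin libraries, against 13.2, 15.4 and 19.6 CPM in the DMSO libraries (-1.62 ± 0.31). All 3 were lowest in replicate 2, and DDIAS the most so. STEAP3, the endosomal reductase that readies transferrin iron for export to the cytosol, stood at 4.48, 2.62 and 3.19 CPM in the ironomycin libraries, against 11.1, 8.97 and 10.5 CPM in the DMSO libraries (-1.56 ± 0.23). MNDA, a nuclear antigen of the myeloid lineage, stood at 3.84, 3.71 and 4.5 CPM in the ironomycin libraries, against 14, 14.2 and 14.1 CPM in the DMSO libraries (-1.80 ± 0.30). F3, tissue factor, stood at 5.55, 2.18 and 5.25 CPM in the ironomycin libraries, against 12.3, 12.7 and 17.6 CPM in the DMSO libraries (-1.71 ± 0.35). The replicates of MNDA lay close together in both groups, whereas F3 was lowest in replicate 2. MANF, a secreted protein induced by endoplasmic reticulum stress, stood at 66.6, 28.6 and 82.3 CPM in the ironomycin libraries, against 148, 188 and 211 CPM in the DMSO libraries (-1.62 ± 0.23). GPR183, an oxysterol receptor of leukocytes, stood at 5.98, 4.8 and 3.37 CPM in the ironomycin libraries, against 20.3, 10.6 and 10.1 CPM in the DMSO libraries (-1.53 ± 0.40), and its call was lost without DMSO replicate 1 (edgeR adjusted p = 0.0644).

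**Figure D3:**
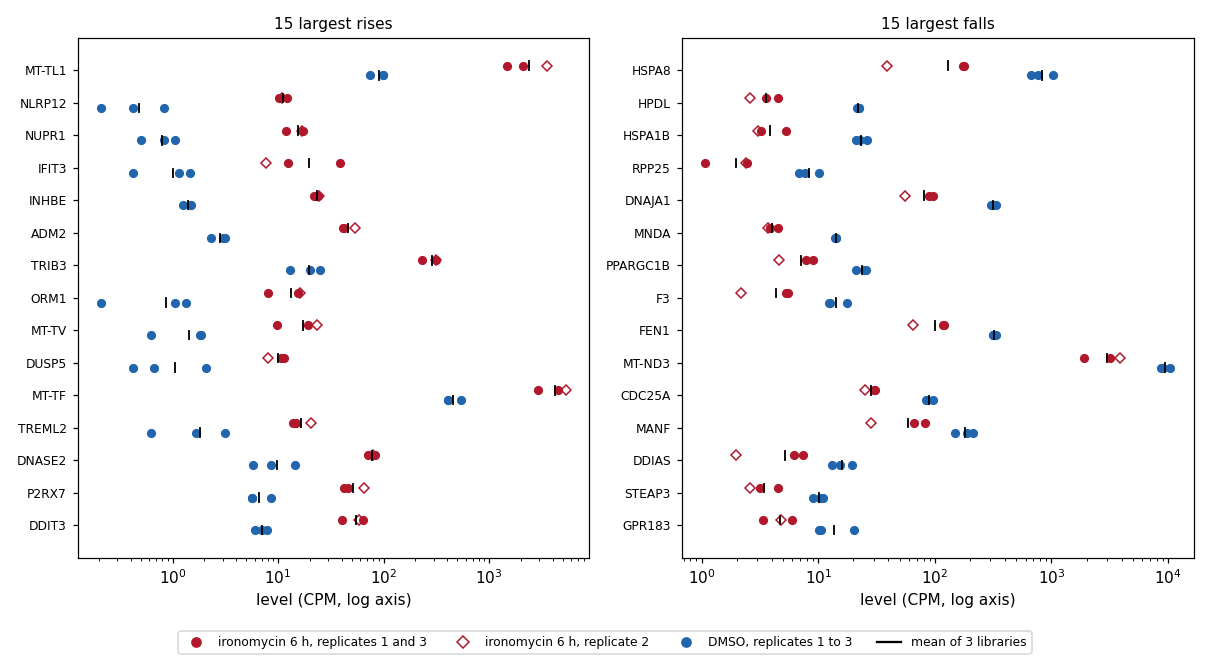
Level in CPM (horizontal, log axis) of the 15 largest rises (left panel) and falls (right panel) in each ironomycin 6 h library (red, replicate 2 as an open diamond) and each DMSO library (blue), with the mean of each group as a black bar. The groups do not overlap for any gene shown because the genes were chosen by that rule. Replicate 2 is the lowest ironomycin library for HSPA8, DDIAS and MANF.

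Among 21 regulators of the integrated stress response, 16 of 21 tested members were higher and 0 lower (16 and 0 without replicate 2), while 5 were not called, with a median log2 fold change of 1.39. The summed level of the list was 2874, 3653 and 2942 CPM in the ironomycin libraries, against 1013, 1076 and 1131 CPM in the DMSO libraries. ATF4 itself stood at 631, 1048 and 569 CPM in the ironomycin libraries, against 279.6, 295 and 284 CPM in the DMSO libraries (1.39 ± 0.18, edgeR adjusted p = 1.0e-05), with replicate 2 the highest. ATF5, a related factor of the mitochondrial stress response, stood at 839, 1128 and 812 CPM in the ironomycin libraries, against 146, 173 and 195 CPM in the DMSO libraries (2.43 ± 0.15, edgeR adjusted p = 4.3e-10). SESN2, a leucine sensor that restrains mTORC1, stood at 154, 205 and 168 CPM in the ironomycin libraries, against 21.5, 24.4 and 27.9 CPM in the DMSO libraries (2.83 ± 0.19, edgeR adjusted p = 5.2e-10). The groups did not overlap for any of the 3. The kinases that start the pathway were not called: EIF2AK1 stood at 0.10 ± 0.10 (edgeR adjusted p = 0.521), EIF2AK2 at -0.02 ± 0.33 (edgeR adjusted p = 0.979), EIF2AK3 at 0.59 ± 0.22 (edgeR adjusted p = 0.0583) and EIF2AK4 at 0.03 ± 0.12 (edgeR adjusted p = 0.883). OMA1 was at 0.07 ± 0.38 (edgeR adjusted p = 0.922). DELE1 rose by 0.71 ± 0.12 (edgeR adjusted p = 1.7e-04). These 6 genes were chosen for the background above and not by their values.

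Secreted and surface products of the response moved with them. Of 14 genes 8 were abundant enough to test, of which 7 were higher and 0 lower (7 and 0 without replicate 2) and 1 was not called. The 7 include NLRP12, a cytosolic receptor, and ORM1, an acute phase protein. The list was chosen with earlier results of these data known. GDF15, a circulating marker of mitochondrial disease, stood at 5.55, 5.89 and 5.81 CPM in the ironomycin libraries, against 0.209, 0.209 and 0.166 CPM in the DMSO libraries (edgeR adjusted p = 6.8e-06), where each DMSO value stands for a single count and no fold is given. FGF21, another such hormone, had 0 counts in all 6 libraries. VEGFA, the endothelial growth factor that both ATF4 and HIF can induce, stood at 82.2, 43.4 and 85.3 CPM in the ironomycin libraries, against 14.2, 11.5 and 23.2 CPM in the DMSO libraries (2.09 ± 0.27, edgeR adjusted p = 6.8e-06), lowest in replicate 2 without overlap with DMSO.

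Many genes that supply amino acids rose. Among amino acid synthesis enzymes, 13 of 21 tested members were higher and 4 lower (13 and 4 without replicate 2), while 4 were not called, with a median log2 fold change of 1.19. Fitting the 6 libraries alone called 13 higher and 2 lower. PCK2, the mitochondrial enzyme that makes phosphoenolpyruvate, stood at 85.8, 104 and 116 CPM in the ironomycin libraries, against 12.1, 16.5 and 20.6 CPM in the DMSO libraries (2.62 ± 0.23, edgeR adjusted p = 3.9e-08). PSPH, the last step of serine synthesis, stood at 75.3, 67.9 and 74.8 CPM in the ironomycin libraries, against 21.7, 24.4 and 27 CPM in the DMSO libraries (1.57 ± 0.17, edgeR adjusted p = 4.9e-07). MTHFD2, of the mitochondrial folate cycle, stood at 374, 266 and 388 CPM in the ironomycin libraries, against 146, 139.8 and 164 CPM in the DMSO libraries (1.19 ± 0.13, edgeR adjusted p = 6.1e-07). Replicates agreed closely for PSPH, while MTHFD2 was lowest in replicate 2. ALDH1L2, the mitochondrial formyltetrahydrofolate dehydrogenase, rose as well (1.82 ± 0.20, edgeR adjusted p = 1.0e-06). Members that fell included PYCR3 (-1.11 ± 0.17) and ALDH18A1 (-0.84 ± 0.22), both of proline synthesis, and MTHFD1 (-0.29 ± 0.10), the cytosolic folate enzyme. These 3 were named after their values were seen.

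Among amino acid transporters, 8 of 15 tested members were higher and 2 lower (8 and 2 without replicate 2), while 5 were not called, with a median log2 fold change of 0.59. SLC38A2, a sodium-coupled carrier of neutral amino acids, stood at 285, 260.4 and 297 CPM in the ironomycin libraries, against 103, 105 and 118 CPM in the DMSO libraries (1.37 ± 0.13, edgeR adjusted p = 1.2e-07). SLC1A4 (1.29 ± 0.15), a carrier of alanine, serine and cysteine, and SLC7A1 (0.82 ± 0.11), a carrier of arginine and lysine, rose. SLC25A22, a glutamate carrier of the inner mitochondrial membrane, fell (-1.44 ± 0.21). Among cytosolic aminoacyl-tRNA synthetases, which charge tRNAs with their amino acids, 11 of 20 tested members were higher and 1 lower (10 and 2 without replicate 2), while 8 were not called, with a median log2 fold change of 0.35. CARS1, for cysteine, stood at 325, 415 and 274 CPM in the ironomycin libraries, against 97.5, 101 and 103 CPM in the DMSO libraries (1.75 ± 0.12, edgeR adjusted p = 1.6e-09). AARS1, for alanine, stood at 357, 532 and 378 CPM in the ironomycin libraries, against 127, 140.0 and 148 CPM in the DMSO libraries (1.61 ± 0.17, edgeR adjusted p = 4.4e-07), highest in replicate 2. GARS1 (1.17 ± 0.12) and WARS1 (1.29 ± 0.15), for glycine and tryptophan, rose as well. The single member that fell, named after its value was seen, was HARS1, for histidine (-1.40 ± 0.32, edgeR adjusted p = 0.00318). Among the mitochondrial synthetases, encoded by other genes, 2 of 17 tested members were higher and 3 lower (2 and 1 without replicate 2), while 12 were not called, with a median log2 fold change of -0.19. These shares were 11.8% higher and 17.6% lower, against 10.9% and 11.1% of all genes tested. In the fit of the 6 libraries alone, 0 higher and 0 lower were called.

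Cytosolic chaperones were called lower or not at all. Of this list 0 of 26 tested members were higher and 15 lower (0 and 15 without replicate 2), while 11 were not called, with a median log2 fold change of -0.53. Its summed level was 10963, 11096 and 9695 CPM in the ironomycin libraries, against 17473, 15962 and 15930.0 CPM in the DMSO libraries, with no overlap. HSPH1, an HSP110 that helps HSP70 exchange nucleotide, stood at 358, 379 and 324 CPM in the ironomycin libraries, against 961, 881 and 905 CPM in the DMSO libraries (-1.37 ± 0.12, edgeR adjusted p = 4.1e-08). HSP90AA1, the inducible HSP90, stood at 4373, 4028 and 3906 CPM in the ironomycin libraries, against 7886, 7288 and 7185 CPM in the DMSO libraries (-0.86 ± 0.10, edgeR adjusted p = 1.8e-06). The replicates of both lay close together. The factor that drives these genes, HSF1, was not called (0.17 ± 0.19, edgeR adjusted p = 0.563), and neither was the constitutive HSP90AB1 (-0.16 ± 0.11, edgeR adjusted p = 0.333).

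Chaperones of other compartments were also called lower in part. For the chaperonin TRiC and prefoldin, which fold actin and tubulin, 0 of 14 tested members were higher and 5 lower (0 and 3 without replicate 2), while 9 were not called, with a median log2 fold change of -0.29. Fitted alone, the 6 libraries gave 0 higher and 3 lower. CCT6A stood at 394, 335 and 342 CPM in the ironomycin libraries, against 563, 507 and 537 CPM in the DMSO libraries (-0.58 ± 0.09, edgeR adjusted p = 9.1e-05). For mitochondrial chaperones and proteases, 1 of 19 tested members was higher and 6 lower (2 and 6 without replicate 2), while 12 were not called, with a median log2 fold change of -0.19. HSPE1, the co-chaperonin HSP10, stood at 188, 113 and 193 CPM in the ironomycin libraries, against 473, 442 and 454 CPM in the DMSO libraries (-1.47 ± 0.16, edgeR adjusted p = 1.2e-06). TIMM17A (-0.92 ± 0.14), of the protein import channel, fell. The member that rose was the matrix protease LONP1, at 88.6, 131 and 97.9 CPM in the ironomycin libraries, against 62.6, 52 and 55.7 CPM in the DMSO libraries (0.90 ± 0.14, edgeR adjusted p = 6.6e-05). For the unfolded protein response of the endoplasmic reticulum, 2 of 26 tested members were higher and 9 lower (1 and 8 without replicate 2), while 15 were not called, with a median log2 fold change of -0.18. With the 6 libraries fitted alone, the counts were 0 higher and 5 lower. After MANF, CRELD2 (-0.87 ± 0.15) and SDF2L1 (-1.27 ± 0.24), both of protein folding there, fell. Whether the share of falling genes differed between compartments was not tested.

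Genes of ribosome assembly, nucleotide supply and DNA replication were called lower or not at all. Among nucleolar ribosome biogenesis genes, 0 of 33 tested members were higher and 21 lower (0 and 23 without replicate 2), while 12 were not called, with a median log2 fold change of -0.46. The 6 libraries fitted alone gave 0 higher and 13 lower. RRP1B, a nucleolar processing factor, stood at 105, 109 and 113 CPM in the ironomycin libraries, against 206, 197 and 198 CPM in the DMSO libraries (-0.88 ± 0.09, edgeR adjusted p = 4.5e-07). NOP16, a nucleolar protein, stood at 55.7, 33 and 46.1 CPM in the ironomycin libraries, against 114, 109 and 119 CPM in the DMSO libraries (-1.34 ± 0.14, edgeR adjusted p = 6.6e-07). The groups did not overlap, and NOP16 was lowest in replicate 2. MYC, the factor best known for driving this programme and named for that reason, stood at 41.2, 7.42 and 50.8 CPM in the ironomycin libraries, against 63.1, 58.2 and 80.4 CPM in the DMSO libraries (-1.01 ± 0.38, edgeR adjusted p = 0.0611). Its mean was lowered by replicate 2, without which the log2 difference was -0.55 (edgeR adjusted p = 0.18). Among the MYC, MAX and MXD network, 4 of 14 tested members were higher and 0 lower (2 and 0 without replicate 2), while 10 were not called, with a median log2 fold change of 0.06. Alone, the 6 libraries gave 2 higher and 0 lower. The MYC antagonists MXI1 (0.80 ± 0.12, edgeR adjusted p = 6.0e-05) and MXD1 (1.47 ± 0.23, edgeR adjusted p = 6.6e-05) rose.

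Among purine and pyrimidine synthesis genes, 0 of 23 tested members were higher and 14 lower (0 and 11 without replicate 2), while 9 were not called, with a median log2 fold change of -0.49. Fitting the 6 libraries alone called 0 higher and 7 lower. UMPS, the last step to uridine monophosphate, stood at 76, 57.8 and 80.2 CPM in the ironomycin libraries, against 125, 118 and 132 CPM in the DMSO libraries (-0.81 ± 0.12, edgeR adjusted p = 6.6e-05). PPAT, the first step of purine synthesis, stood at 31.2, 32.5 and 36.4 CPM in the ironomycin libraries, against 61, 53.2 and 54.1 CPM in the DMSO libraries (-0.75 ± 0.11, edgeR adjusted p = 6.6e-05). Neither overlapped between groups. Among DNA replication and G1/S genes, 0 of 38 tested members were higher and 22 lower (0 and 17 without replicate 2), while 16 were not called, with a median log2 fold change of -0.45. In the fit of the 6 libraries alone, 0 higher and 13 lower were called. After FEN1, the origin licensing factor CDC6 stood at 29.5, 27.9 and 32.1 CPM in the ironomycin libraries, against 67.9, 65.3 and 75.5 CPM in the DMSO libraries (-1.22 ± 0.18, edgeR adjusted p = 4.8e-05). MCM10, of the replication fork, stood at 44.2, 46.5 and 39.4 CPM in the ironomycin libraries, against 84.6, 88.9 and 85.8 CPM in the DMSO libraries (-1.0 ± 0.15, edgeR adjusted p = 7.0e-05). Replicate 2 lay within or near the range of the others in both. Among G2/M and mitosis genes, 1 of 33 tested members was higher and 6 lower (0 and 1 without replicate 2), while 26 were not called, with a median log2 fold change of -0.11. Fitted alone, the 6 libraries gave 0 higher and 1 lower. MAD2L1, of the spindle checkpoint, fell (-0.88 ± 0.15, edgeR adjusted p = 1.7e-04). In bulk libraries fewer cells in a phase and less RNA per cell cannot be told apart.

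Some nuclear genes that serve mitochondrial gene expression and respiration also fell. Among mitochondrial ribosomal proteins, 0 of 71 tested members were higher and 29 lower (0 and 27 without replicate 2), while 42 were not called, with a median log2 fold change of -0.35. With the 6 libraries fitted alone, the counts were 0 higher and 11 lower. MRPS6 stood at 65.7, 51.1 and 60 CPM in the ironomycin libraries, against 122, 104 and 114 CPM in the DMSO libraries (-0.95 ± 0.11, edgeR adjusted p = 3.1e-06), and MRPL44 fell by a similar amount (-1.02 ± 0.13). Among genes of mitochondrial transcription and RNA processing, 0 of 29 tested members were higher and 13 lower (0 and 10 without replicate 2), while 16 were not called, with a median log2 fold change of -0.43. The 6 libraries fitted alone gave 0 higher and 6 lower. TRMT10C, a subunit of mitochondrial RNase P, which cuts tRNAs out of the primary transcript, stood at 37.1, 42.1 and 46.7 CPM in the ironomycin libraries, against 88.1, 82.2 and 101 CPM in the DMSO libraries (-1.10 ± 0.16, edgeR adjusted p = 2.5e-05). SLIRP, which stabilises mitochondrial mRNAs, stood at 363, 254 and 316 CPM in the ironomycin libraries, against 609, 539 and 584 CPM in the DMSO libraries (-0.89 ± 0.13, edgeR adjusted p = 2.7e-05). TWNK, the mitochondrial DNA helicase, stood at 28, 30.3 and 31.1 CPM in the ironomycin libraries, against 59.3, 62.6 and 55.7 CPM in the DMSO libraries (-0.99 ± 0.16, edgeR adjusted p = 8.1e-05). None of these 3 overlapped between groups. Among nuclear genes of complex I, 1 of 35 tested members was higher and 11 lower (0 and 11 without replicate 2), while 23 were not called, with a median log2 fold change of -0.24. Alone, the 6 libraries gave 0 higher and 4 lower. NDUFS5 (-0.61 ± 0.11) and NDUFAB1 (-0.60 ± 0.11) fell. Among those of complexes II to V, 0 of 38 tested members were higher and 11 lower (0 and 12 without replicate 2), while 27 were not called, with a median log2 fold change of -0.27. Fitting the 6 libraries alone called 0 higher and 6 lower. CYCS, cytochrome c, stood at 163, 111 and 165 CPM in the ironomycin libraries, against 285, 246 and 312 CPM in the DMSO libraries (-0.94 ± 0.14, edgeR adjusted p = 3.7e-05).

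Transcripts of the mitochondrial chromosome moved in both directions. Of 22 tested, 10 were higher and 7 lower (9 and 7 without replicate 2) and 5 were not called, while the share of all counts from this chromosome was 8.80%, 10.5% and 10.0% in the ironomycin libraries, against 8.05%, 8.85% and 10.3% in the DMSO libraries. The 3 largest rises, of MT-TL1, MT-TV and MT-TF, lay toward the start of the heavy strand transcript, which holds both ribosomal RNAs and their flanking tRNAs. MT-TL1, the leucine tRNA after the large ribosomal RNA, stood at 2086, 3560.0 and 1479 CPM in the ironomycin libraries, against 97.9, 98.9 and 74.1 CPM in the DMSO libraries (4.72 ± 0.25, edgeR adjusted p = 3.4e-11). MT-TF, the phenylalanine tRNA before the small ribosomal RNA, stood at 4507, 5359.9 and 2882 CPM in the ironomycin libraries, against 538, 409 and 403 CPM in the DMSO libraries (3.24 ± 0.23, edgeR adjusted p = 1.6e-09). MT-RNR1, the small ribosomal RNA, stood at 8904, 10351 and 7639 CPM in the ironomycin libraries, against 2684, 2312 and 2462 CPM in the DMSO libraries (1.85 ± 0.12, edgeR adjusted p = 5.2e-10). Replicate 2 was the highest library for all 3. MT-RNR2, the large ribosomal RNA of the same stretch, was not called (0.48 ± 0.18, edgeR adjusted p = 0.0628). Beyond it MT-TC, the cysteine tRNA, encoded on the light strand, rose (2.87 ± 0.29, edgeR adjusted p = 3.1e-07). MT-TM rose too (2.02 ± 0.32, edgeR adjusted p = 8.3e-05). The tRNAs MT-TY, next to MT-TC (-1.07 ± 0.26, edgeR adjusted p = 0.00409), and MT-TP (-0.46 ± 0.14, edgeR adjusted p = 0.0225) fell. Further along, the run from MT-CO2 to MT-ND3 fell, with log2 fold changes of -1.45 ± 0.24 for MT-CO2, -1.12 ± 0.25 for MT-ATP8, -1.02 ± 0.21 for MT-ATP6, -1.05 ± 0.21 for MT-CO3 and -1.66 ± 0.21 for MT-ND3. MT-ND3, a subunit of complex I, stood at 1920.2, 3847 and 3197 CPM in the ironomycin libraries, against 9119, 8695 and 10439.8 CPM in the DMSO libraries (edgeR adjusted p = 4.9e-06). MT-CO1, next to that run, rose and stood at 1814, 2659 and 2513 CPM in the ironomycin libraries, against 869, 913 and 1142 CPM in the DMSO libraries (1.26 ± 0.14, edgeR adjusted p = 1.5e-06), and MT-ND5 rose too (1.53 ± 0.15, edgeR adjusted p = 1.2e-07).

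MT-ND6, next to MT-ND5 but encoded on the light strand, rose (1.68 ± 0.14, edgeR adjusted p = 2.8e-08), but no source here says whether the counting used strand, so its reads and reads of heavy strand transcripts across it cannot be told apart. The tRNA sequences are shown because the library kit primes on poly(A), which mature tRNAs lack, with capitals at the first longest run of A in each, 4 bases in MT-TL1 and MT-TF and 3 bases in MT-TV. They are written as in GENCODE 29 and are 75, 71 and 69 bases long.
MT-TL1: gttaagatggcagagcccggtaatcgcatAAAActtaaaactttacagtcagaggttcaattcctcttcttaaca
MT-TF: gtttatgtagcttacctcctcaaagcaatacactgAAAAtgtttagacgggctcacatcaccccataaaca
MT-TV: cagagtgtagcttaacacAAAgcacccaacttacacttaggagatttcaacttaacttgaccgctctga

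**Figure D4:**
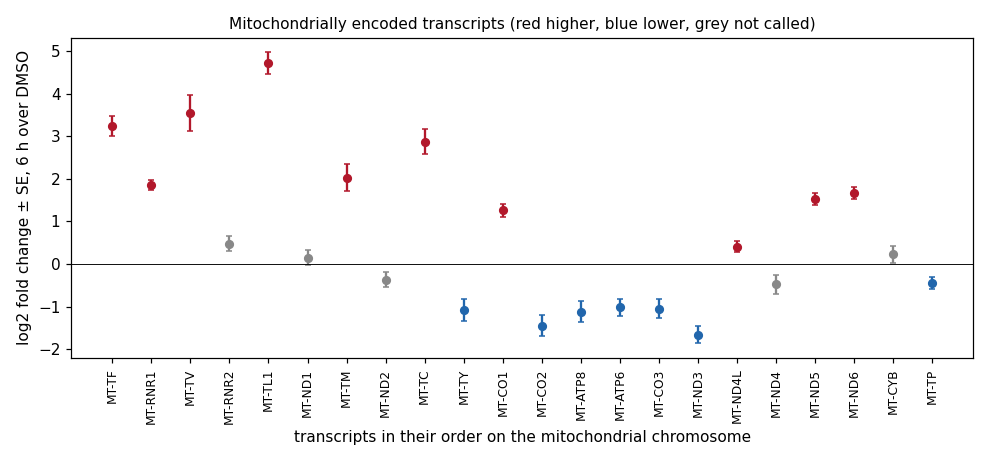
Log2 fold change of ironomycin 6 h over DMSO with its SE (vertical) for the 22 mitochondrially encoded transcripts tested, in their order on the chromosome (horizontal), red where called higher, blue where called lower and grey where not called. The 3 highest values, up to 4.72 at MT-TL1, are among the first 5 transcripts, and the run from MT-CO2 to MT-ND3 lies between -1.02 and -1.66.

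Genes of iron uptake and storage were mostly not called. Of 19 genes 12 were tested, of which 0 were higher and 2 lower (16.7%, against 11.1% of all genes tested) and 10 were not called. Without replicate 2 the counts were 0 and 1. In the fit of the 6 libraries alone, 0 higher and 1 lower were called. TFRC, the transferrin receptor, stood at 525, 340.3 and 526 CPM in the ironomycin libraries, against 489, 436 and 449 CPM in the DMSO libraries (0.02 ± 0.16, edgeR adjusted p = 0.946), and its groups overlapped. STEAP3 fell as described above, and the iron chaperone PCBP1 fell (-0.47 ± 0.16, edgeR adjusted p = 0.0401), a call lost without replicate 2 (edgeR adjusted p = 0.199), without DMSO replicate 3 and with the 6 libraries fitted alone (edgeR adjusted p = 0.178). FTH1, ferritin heavy chain, was too low to test, with 8 and 1 counts over the 3 libraries of ironomycin and of DMSO. Among genes of mitochondrial iron, iron-sulfur clusters and heme, 2 of 30 tested members were higher and 8 lower (2 and 8 without replicate 2), while 20 were not called, with a median log2 fold change of -0.11. Fitted alone, the 6 libraries gave 1 higher and 2 lower. HMOX2, the constitutive heme oxygenase, stood at 32, 45 and 32.2 CPM in the ironomycin libraries, against 62.9, 65.1 and 69.7 CPM in the DMSO libraries (-0.86 ± 0.13, edgeR adjusted p = 8.1e-05). ALAS1, the first enzyme of heme synthesis, stood at 52.9, 34.3 and 70.7 CPM in the ironomycin libraries, against 21.7, 25.9 and 32.8 CPM in the DMSO libraries (0.97 ± 0.21, edgeR adjusted p = 0.00176). HMOX2 and ALAS1 moved in opposite directions, and for ALAS1 replicate 2 was the lowest ironomycin library.

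Among targets of the hypoxia-inducible factor, 8 of 25 tested members were higher and 3 lower (8 and 2 without replicate 2), while 14 were not called, with a median log2 fold change of 0.02. The shares were 32% higher and 12% lower, against 10.9% and 11.1% of all genes tested. With the 6 libraries fitted alone, the counts were 5 higher and 1 lower. SLC2A3, the glucose transporter GLUT3, stood at 55.7, 58.5 and 55.1 CPM in the ironomycin libraries, against 17.1, 17.3 and 18.9 CPM in the DMSO libraries (1.66 ± 0.15, edgeR adjusted p = 5.2e-08), with close replicates. VEGFA, MXI1 and BNIP3L (0.82 ± 0.14), a mitophagy receptor, rose with it. The 3 members that fell, named after their values were seen, were of glycolysis or lipid droplets: LDHA (-0.91 ± 0.17), HK2 (-0.94 ± 0.28) and HILPDA (-0.40 ± 0.12). Without replicate 2 the HK2 difference was -0.57 (edgeR adjusted p = 0.0587). Among glycolysis genes as a whole, 1 of 21 tested members was higher and 6 lower (1 and 5 without replicate 2), while 14 were not called, with a median log2 fold change of -0.24. The 6 libraries fitted alone gave 1 higher and 3 lower. SLC16A1 (-0.67 ± 0.09), a lactate carrier, and PGP (-0.76 ± 0.12) fell. Among iron- and 2-oxoglutarate-dependent dioxygenases, 5 of 27 tested members were higher (18.5%) and 1 lower (3.7%), as without replicate 2, while 21 were not called, with a median log2 fold change of 0.08. The histone demethylase KDM6B stood at 43.8, 24.2 and 39.4 CPM in the ironomycin libraries, against 18.6, 15.4 and 17.6 CPM in the DMSO libraries (1.06 ± 0.19, edgeR adjusted p = 3.9e-04), and the lysine hydroxylase JMJD6 fell (-0.84 ± 0.17, edgeR adjusted p = 8.6e-04).

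Among NRF2 targets, 3 of 20 tested members were higher and 1 lower (2 and 1 without replicate 2), while 16 were not called, with a median log2 fold change of 0.13. Alone, the 6 libraries gave 1 higher and 0 lower. SLC7A11, the cystine carrier that ATF4 also induces, stood at 77.5, 63.5 and 83 CPM in the ironomycin libraries, against 8.14, 18.8 and 32.8 CPM in the DMSO libraries (1.88 ± 0.36, edgeR adjusted p = 5.3e-04), and its DMSO libraries varied more than its ironomycin libraries. Among metallothioneins and zinc transporters, 1 of 11 tested members was higher (9.09%) and 0 lower (0 and 0 without replicate 2), while 10 were not called, with a median log2 fold change of -0.17. MT1F stood at 0.48 ± 0.14 (edgeR adjusted p = 0.0168), a call lost without replicate 2 (edgeR adjusted p = 0.0748) and without DMSO replicate 1 or 3, with edgeR adjusted p up to 0.0758. Among genes of cholesterol synthesis and uptake, 2 of 22 tested members were higher (9.09%) and 1 lower (4.55%), as without replicate 2, while 19 were not called, with a median log2 fold change of 0.13. Fitting the 6 libraries alone called 0 higher and 1 lower. EBP, a sterol isomerase, fell (-0.67 ± 0.11, edgeR adjusted p = 1.2e-04).

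The effectors BAX and BAK1, which the title of the series places in the death of these cells, were not called. BAX stood at 21.1, 27.5 and 18 CPM in the ironomycin libraries, against 26.3, 28.2 and 18.2 CPM in the DMSO libraries (-0.12 ± 0.19, edgeR adjusted p = 0.678). BAK1 stood at 13.2, 15.3 and 11.6 CPM in the ironomycin libraries, against 11.9, 13.1 and 11.1 CPM in the DMSO libraries (0.15 ± 0.22, edgeR adjusted p = 0.666). The groups of both overlapped. The survival factor MCL1 stood at 145, 85.6 and 152 CPM in the ironomycin libraries, against 170.4, 143 and 172 CPM in the DMSO libraries (-0.35 ± 0.16, edgeR adjusted p = 0.13), and it was called lower without ironomycin replicate 3 (-0.49). In the BCL2 family, 4 of 16 tested members were higher and 1 lower (6 and 1 without replicate 2), while 11 were not called, with a median log2 fold change of 0.32. In the fit of the 6 libraries alone, 3 higher and 0 lower were called. Besides BNIP3L, the genes that rose encode BH3-only proteins, which set off BAX and BAK. BBC3, which encodes PUMA, stood at 167, 204 and 142 CPM in the ironomycin libraries, against 100.2, 84.5 and 61.7 CPM in the DMSO libraries (1.06 ± 0.14, edgeR adjusted p = 1.4e-05). PMAIP1, which encodes NOXA, stood at 84.7, 33.8 and 49.3 CPM in the ironomycin libraries, against 29.9, 28.4 and 32.7 CPM in the DMSO libraries (0.88 ± 0.22, edgeR adjusted p = 0.00493), and its call did not hold with the 6 libraries fitted alone (edgeR adjusted p = 0.0844). BMF rose as well (1.17 ± 0.30, edgeR adjusted p = 0.00691). Replicate 1 was the highest for PMAIP1, whose difference without it was 0.46 (edgeR adjusted p = 0.0591), and replicate 3 for BMF, whose call was lost without it (edgeR adjusted p = 0.0555). Among CDK inhibitors and p53 targets, 8 of 25 tested members were higher and 6 lower (9 and 6 without replicate 2), while 11 were not called, with a median log2 fold change of 0.15. Fitted alone, the 6 libraries gave 4 higher and 3 lower. BTG1, an antiproliferative factor, stood at 197, 183 and 150.0 CPM in the ironomycin libraries, against 50.7, 63.9 and 54.9 CPM in the DMSO libraries (1.64 ± 0.16, edgeR adjusted p = 1.2e-07). MDM2, the p53 ubiquitin ligase and a p53 target, stood at 75.6, 61.1 and 74.1 CPM in the ironomycin libraries, against 114, 107 and 108 CPM in the DMSO libraries (-0.65 ± 0.12, edgeR adjusted p = 3.9e-04), so it fell while BBC3, another target, rose.

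Some genes of the lysosome and of autophagy rose. Of the lysosome and TFEB list 12 of 35 tested members were higher and 2 lower (8 and 3 without replicate 2), while 21 were not called, with a median log2 fold change of 0.40. With the 6 libraries fitted alone, the counts were 4 higher and 0 lower. FLCN (0.90 ± 0.14, edgeR adjusted p = 6.3e-05) and FNIP1 (0.90 ± 0.14, edgeR adjusted p = 6.9e-05), partners that control TFEB at the lysosome, rose. Of the autophagy list 10 of 29 tested members were higher and 1 lower (8 and 1 without replicate 2), while 18 were not called, with a median log2 fold change of 0.27. The 6 libraries fitted alone gave 7 higher and 0 lower. MAP1LC3B, the membrane mark of autophagosomes, stood at 57.8, 52.2 and 73.9 CPM in the ironomycin libraries, against 30.1, 26.9 and 34.2 CPM in the DMSO libraries (1.01 ± 0.14, edgeR adjusted p = 2.2e-05). NBR1, a cargo receptor, stood at 75.6, 93.4 and 86.8 CPM in the ironomycin libraries, against 44.9, 54.5 and 45.1 CPM in the DMSO libraries (0.82 ± 0.12, edgeR adjusted p = 4.9e-05). The ironomycin libraries of both lay above all DMSO libraries.

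Some inflammatory and interferon genes rose. Of the NF-kB list 7 of 20 tested members were higher and 0 lower (8 and 1 without replicate 2), while 13 were not called, with a median log2 fold change of 0.30. BCL3, a nuclear IκB protein, stood at 39.3, 92.3 and 65.8 CPM in the ironomycin libraries, against 12.7, 11.7 and 15.1 CPM in the DMSO libraries (2.31 ± 0.25, edgeR adjusted p = 6.0e-07). RELB, a subunit of NF-kB, stood at 16.4, 46.7 and 32.2 CPM in the ironomycin libraries, against 8.35, 9.6 and 10.9 CPM in the DMSO libraries (1.71 ± 0.26, edgeR adjusted p = 5.6e-05). NFKBIA, which encodes IκBα, stood at 112, 151 and 157 CPM in the ironomycin libraries, against 69.1, 81.6 and 90.1 CPM in the DMSO libraries (0.80 ± 0.13, edgeR adjusted p = 1.1e-04). BCL3 and RELB were highest in replicate 2 and lowest in replicate 1, without overlap with DMSO. Of interferon-stimulated genes, 9 of 35 tested members were higher and 0 lower (7 and 0 without replicate 2), while 26 were not called, with a median log2 fold change of 0.80. XAF1, an antagonist of inhibitors of apoptosis, stood at 248, 256 and 251 CPM in the ironomycin libraries, against 58.7, 59.9 and 68.8 CPM in the DMSO libraries (2.01 ± 0.18, edgeR adjusted p = 7.7e-08). STAT2, of the interferon receptor pathway, stood at 39.9, 38.8 and 44.4 CPM in the ironomycin libraries, against 10, 14.2 and 15.9 CPM in the DMSO libraries (1.61 ± 0.17, edgeR adjusted p = 3.9e-07). The replicates of both lay close together. KLHDC7B stood at 3.63, 6.98 and 3.19 CPM in the ironomycin libraries, against 0 counts in all DMSO libraries (edgeR adjusted p = 3.6e-06). Among immediate early genes, 4 of 25 tested members were higher and 2 lower (6 and 1 without replicate 2), while 19 were not called, with a median log2 fold change of 0.23. These shares were 16.0% higher and 8.0% lower, against 10.9% and 11.1% of all genes tested. Alone, the 6 libraries gave 3 higher and 1 lower. ATF3, which also belongs to the integrated stress response, stood at 18.1, 21 and 27.2 CPM in the ironomycin libraries, against 2.09, 6.47 and 5.47 CPM in the DMSO libraries (2.23 ± 0.30, edgeR adjusted p = 1.4e-05), and DUSP2 fell (-1.46 ± 0.26, edgeR adjusted p = 3.7e-04).

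Of 27 myeloid markers 19 were tested, of which 2 were higher (10.5%) and 4 lower (21.1%), against 10.9% and 11.1% of all genes tested, and 13 were not called. Without replicate 2 they were 3 higher and 3 lower. Fitting the 6 libraries alone called 2 higher and 2 lower. CTSG, a granule protease, rose (0.54 ± 0.12, edgeR adjusted p = 0.00213), and MNDA fell as given above. IRF8, a factor of monocyte and dendritic cell fate, stood at 77.3, 18.1 and 90.4 CPM in the ironomycin libraries, against 123, 145 and 232 CPM in the DMSO libraries (-1.42 ± 0.40, edgeR adjusted p = 0.0125), a call that did not hold with the 6 libraries fitted alone (edgeR adjusted p = 0.09) or without DMSO replicate 3 (edgeR adjusted p = 0.0783). Among KMT2A fusion targets, 2 of 11 tested members were higher (18.2%) and 0 lower (4 and 0 without replicate 2), while 9 were not called, with a median log2 fold change of 0.29. PBX3 (0.46 ± 0.10), a partner of HOX proteins, and MEF2C (0.45 ± 0.11), a transcription factor of early blood progenitors, rose. Of 14 B-lymphoid markers 3 were tested, of which 2 were not called, with a median log2 fold change of -0.12. EBF1, a B cell transcription factor, rose (1.87 ± 0.42, edgeR adjusted p = 0.00276), with 8.97, 4.58 and 5.06 CPM in the ironomycin libraries, against 2.51, 1.25 and 1.33 CPM in the DMSO libraries. In summed level the 3 overlapped, at 39.3, 45.8 and 33.9 CPM in the ironomycin libraries, against 28.6, 55.5 and 31.35 CPM in the DMSO libraries. The summed level of the tested T and natural killer cell markers, NCAM1 and NKG7, was 128, 149 and 113 CPM in the ironomycin libraries, against 94.8, 101 and 79 CPM in the DMSO libraries, and that of the tested epithelial marker KRT8 was 7.47, 10.7 and 9.94 CPM in the ironomycin libraries, against 5.22, 6.68 and 4.15 CPM in the DMSO libraries. NCAM1 was called higher (0.54 ± 0.16, edgeR adjusted p = 0.0196), a call lost without replicate 2 (edgeR adjusted p = 0.0791), without DMSO replicate 3 (edgeR adjusted p = 0.118) and with the 6 libraries fitted alone (edgeR adjusted p = 0.0612). Neither KRT8 (edgeR adjusted p = 0.0571) nor the erythroid EPOR (edgeR adjusted p = 0.148) was called, and the part of other cell types in the results was not tested.

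Larger families give the background to these lists. Of cytosolic ribosomal proteins, 6 of 83 tested members were higher (7.23%) and 2 lower (2.41%), against 10.9% and 11.1% of all genes tested. Without replicate 2 the counts were 1 and 3. The other 75 were not called, and the median log2 fold change was 0.06. In the fit of the 6 libraries alone, 0 higher and 0 lower were called. Of proteasome subunits, 1 of 44 tested members was higher and 13 lower (0 and 11 without replicate 2), while 30 were not called, with a median log2 fold change of -0.22. Fitted alone, the 6 libraries gave 0 higher and 6 lower. PSME3, a nuclear activator, fell (-0.64 ± 0.10, edgeR adjusted p = 1.3e-04). Of zinc finger genes, 30 of 271 tested members were higher and 18 lower (19 and 12 without replicate 2), while 223 were not called, with a median log2 fold change of 0.11. The shares called were 11.1% higher and 6.64% lower, against 10.9% and 11.1% of all genes tested. With the 6 libraries fitted alone, the counts were 13 higher and 5 lower. Of solute carriers, 28 of 166 tested members were higher and 22 lower (25 and 21 without replicate 2), while 116 were not called, with a median log2 fold change of -0.03. These shares were 16.9% higher and 13.3% lower, set against the same shares of all genes tested. The 6 libraries fitted alone gave 16 higher and 12 lower. SLC31A1, the copper importer, stood at 81.5, 75.5 and 71.4 CPM in the ironomycin libraries, against 39.9, 29.6 and 32.7 CPM in the DMSO libraries (1.16 ± 0.12, edgeR adjusted p = 3.3e-07). SLC29A1, a nucleoside carrier, stood at 32.4, 23.8 and 34.5 CPM in the ironomycin libraries, against 83.5, 72.6 and 78.5 CPM in the DMSO libraries (-1.37 ± 0.14, edgeR adjusted p = 5.0e-07). Both differed between groups by more than their replicates did. Of histone genes, 5 of 30 tested members were higher (16.7%) and 2 lower (6.67%), or 4 and 2 without replicate 2, while 23 were not called, with a median log2 fold change of 0.33. Alone, the 6 libraries gave 3 higher and 2 lower. Of nuclear and noncoding RNAs, 8 of 16 tested members were higher and 1 lower (7 and 1 without replicate 2), while 7 were not called, with a median log2 fold change of 0.39. Fitting the 6 libraries alone called 3 higher and 1 lower. NEAT1, the scaffold of paraspeckles, stood at 400.0, 415 and 477 CPM in the ironomycin libraries, against 160.0, 196 and 256 CPM in the DMSO libraries (1.08 ± 0.18, edgeR adjusted p = 1.8e-04), without overlap.

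**Figure D5:**
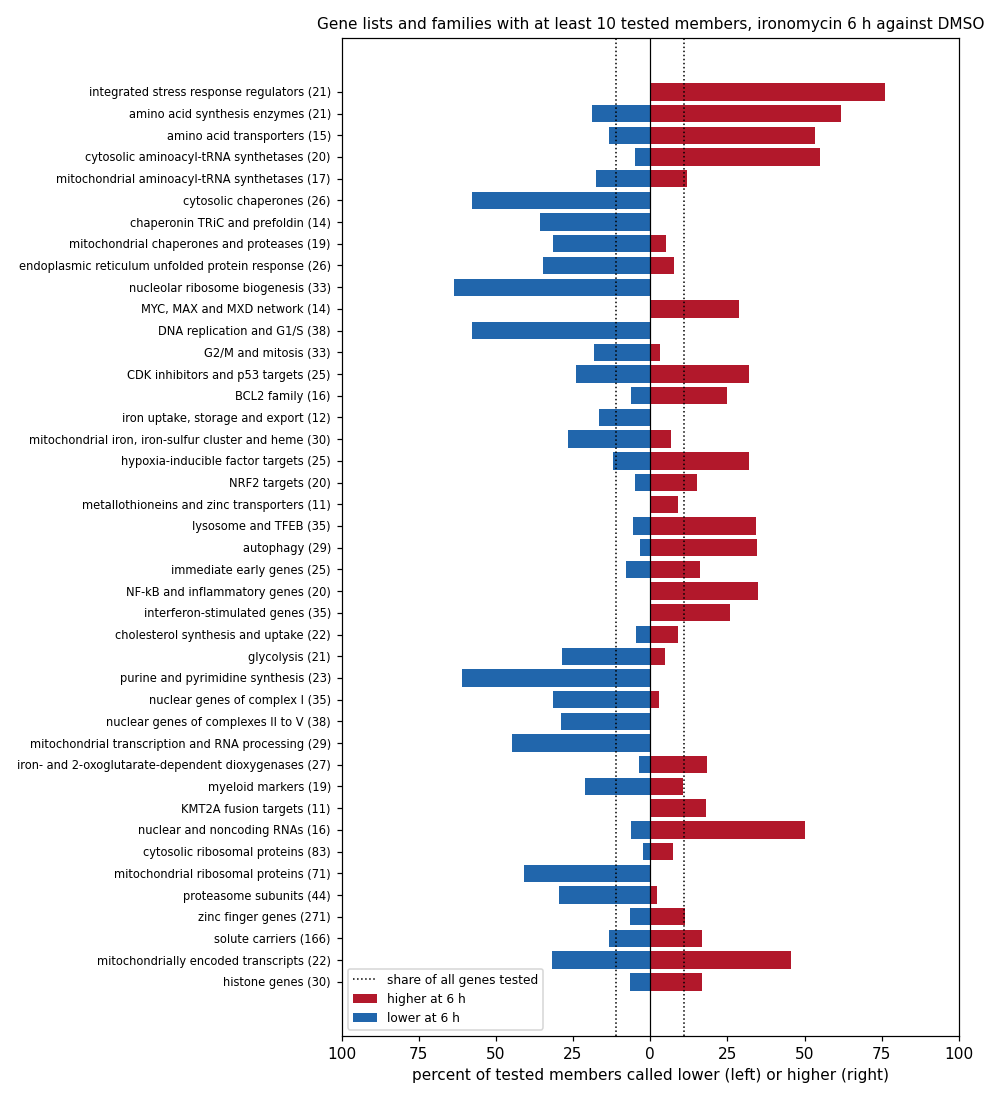
Percent of the tested members of each gene list or family (number tested in parentheses) called higher (red, to the right) or lower (blue, to the left) at 6 h of ironomycin against DMSO, with dotted lines at the share of all genes tested, 10.9% higher and 11.1% lower. Stress response and amino acid lists extend to the right, and chaperone, nucleolar, replication and nucleotide synthesis lists to the left.

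The levels at 24 h of ironomycin were compared with those at 6 h, which uses the same 6 h libraries and has no DMSO of its own time. In that comparison 1922 genes were called (16.6%). Some of the largest changes were smaller at 24 h. MT-TL1 was at 524 ± 11 CPM at 24 h, against 2375 ± 1070.0 CPM at 6 h (-2.18 ± 0.22, edgeR adjusted p = 3.6e-07). MT-RNR1 was at 2612 ± 92 CPM at 24 h, against 8965 ± 1357 CPM at 6 h (-1.78 ± 0.12, edgeR adjusted p = 2.5e-09). DDIT3 was at 23 ± 0.642 CPM at 24 h, against 54.3 ± 12.2 CPM at 6 h (-1.24 ± 0.18, edgeR adjusted p = 5.2e-05). HSPA8, which had fallen, was at 294 ± 40.6 CPM at 24 h, against 129.7 ± 78.7 CPM at 6 h (1.18 ± 0.34, edgeR adjusted p = 0.0188). All 4 thus moved against the direction they had at 6 h. They were named at least in part by their 6 h values, and such a choice favours a move back. Set against the same DMSO libraries, which both times then share, the log2 differences of MT-TL1 were 2.54 ± 0.23 at 24 h and 4.72 ± 0.25 at 6 h, those of MT-RNR1 0.07 ± 0.12 at 24 h and 1.85 ± 0.12 at 6 h, those of DDIT3 1.71 ± 0.21 at 24 h and 2.96 ± 0.21 at 6 h and those of HSPA8 -1.48 ± 0.34 at 24 h and -2.66 ± 0.35 at 6 h. Others were larger: NUPR1 was at 27.7 ± 0.985 CPM at 24 h, against 15.4 ± 2.93 CPM at 6 h (0.85 ± 0.22, edgeR adjusted p = 0.00999), and ORM1 at 35.3 ± 17.3 CPM at 24 h, against 13.3 ± 4.48 CPM at 6 h (1.41 ± 0.35, edgeR adjusted p = 0.00707). TRIB3 was at 216 ± 35.8 CPM at 24 h, against 287 ± 46.8 CPM at 6 h (-0.41 ± 0.20, edgeR adjusted p = 0.179) and ATF4 at 604 ± 44.8 CPM at 24 h, against 749 ± 261 CPM at 6 h (-0.31 ± 0.18, edgeR adjusted p = 0.249), and neither was called. NLRP12, at 8.35 ± 2.32 CPM at 24 h, against 11.1 ± 0.986 CPM at 6 h, was not called either (-0.41 ± 0.30, edgeR adjusted p = 0.38).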

How the data were processed

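The deposited values are whole-number counts of reads for each Ensembl gene, not normalized by the authors. The submitters' processing notes name bcl2fastq (2.20.0.422), HISAT2, the build hg19 and HTSeq, and the labels' protocols name a Lexogen QuantSeq 3′ library kit. The strand setting is not given in the sources used here, so antisense, overlapping and near-identical genes are uncertain. GENCODE 29 and RefSeq tables on GRCh38 gave names, promoters and GC content, and no coordinates of the files' build are printed. Of 54042 genes, 51854 matched a symbol, and the 2188 others held 8 counts in all.

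Counts of all 21 libraries, in 7 groups of 3, were fitted in edgeR (4.0.16; R 4.3.3; limma 3.58.1) after TMM scaling, keeping genes that pass filterByExpr (minimum count 10, minimum total 15) for the quasi-likelihood test, with Benjamini-Hochberg adjustment over 11610 genes. The common biological coefficient of variation was 0.149 in this fit and larger, 0.183, in the fit of the 6 compared libraries alone. CPM use the TMM-scaled library sizes. Alternatives were RLE size factors, DESeq2 1.42.0, a block for replicate number, no low-count filter, the 6 libraries alone, voom with library weights on the 6 libraries alone, and each of the 6 libraries left out. The 6 libraries alone without 6 h replicate 2 were added after seeing the data. Figures were drawn with matplotlib 3.10.9 (Python 3.11.15, pandas 2.3.3, numpy 2.4.6).

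The 40 gene lists, 7 families and named genes were chosen with earlier results of these data known. Named genes were the 15 largest rises and falls called in the fits of 21 and of 6 libraries with a mean of at least 5 CPM and no overlap, the called members of each list with the smallest adjusted p (at most 4, some of them printed, in that order), ATF4, DDIT3, TRIB3, HSPA8, TFRC, BAX, BAK1 and MCL1, and the 5 highest and 5 lowest genes of 6 h replicate 2 among those of at least 20 CPM. Other genes were named for their role or, where the text says so, after their values were seen. A few genes are not reported here.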

Additional observations from a re-analysis of the deposited data

Results flagged for a closer look

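A gene is given here where its level at 24 h of ironomycin differed from that at 6 h in edgeR's test of that difference (adjusted p under 0.05), among the 30 largest changes and the 8 genes followed by choice. Values are log2 fold changes of 24 h over 6 h, and what moved them was not tested. The 30 largest changes were picked by their 6 h values, and such a choice favours a move back at 24 h. Among genes that had risen at 6 h, lower values at 24 h were found for MT-TL1 (-2.18), MT-TV (-1.62), MT-TF (-1.33), DDIT3 (-1.24), TREML2 (-1.20) and ADM2 (-0.68). MT-TL1, MT-TV and MT-TF lay between DMSO and 6 h levels at 24 h, with MT-TL1 at 524 ± 11 CPM at 24 h, against 2375 ± 1070.0 CPM at 6 h. Higher values still at 24 h were found for ORM1 (1.41), IFIT3 (1.34) and NUPR1 (0.85). Among genes that had fallen at 6 h, higher values at 24 h were found for MANF (1.79), F3 (1.72), STEAP3 (1.40), HSPA1B (1.26), HSPA8 (1.18), PPARGC1B (1.13), DNAJA1 (0.69) and FEN1 (0.50). MANF stood at 205 ± 7.91 CPM at 24 h, against 59.2 ± 27.6 CPM at 6 h. Against the DMSO libraries, shared by both times, the log2 differences of MANF were 0.17 ± 0.22 at 24 h and -1.62 ± 0.23 at 6 h, those of F3 0.01 ± 0.31 at 24 h and -1.71 ± 0.35 at 6 h and those of STEAP3 -0.16 ± 0.21 at 24 h and -1.56 ± 0.23 at 6 h. Without 6 h replicate 2, the differences for IFIT3 (edgeR adjusted p = 0.125), ADM2 (0.129) and FEN1 (0.163) were not called.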

How the results depend on the processing

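The number of genes called, 2556, was 2559 with RLE size factors, 2549 without the low-count filter and 2564 with DESeq2. In the fit of the 6 libraries alone it was 1212 (636 higher, 576 lower). With voom and library weights on these 6 libraries it was 2120, and in the edgeR fit of the 6 libraries alone without 6 h replicate 2 it was 2095. Leaving out 1 library gave 1776 to 2594 calls, 846 to 1294 higher, 930 to 1300 lower and 555 to 804 of at least 2-fold; the fewest higher calls came without DMSO replicate 3. The labels do not say what replicate numbers mark, and deviations of same-numbered libraries correlated at 0.0491, 0.164 and 0.347, so they were not taken as pairs; with the replicate number as a block 3098 genes were called. Of 192 named genes 148 kept direction and call under every alternative. Signs changed for genes that were not called. On leaving out 1 library TFRC lay between -0.0787 and 0.198, BAX between -0.305 and 0.0193 and, among genes picked for replicate 2, PLAU between -0.679 and 0.440, NCSTN between -0.539 and 0.529, PTMAP2 between -2.36 and 0.933, GAPDHP1 between -1.83 and 0.564, RPL5P34 between -1.52 and 1.53 and RPS26P47 between -0.150 and 4.85. With voom and library weights PLAU was 0.119, NCSTN 0.243 and RPL5P34 -0.788, and in the 6 libraries alone without 6 h replicate 2 these were 0.445, 0.533 and -1.51, and RPS26P47 -0.136. For 24 h against 6 h signs changed for DUSP5 (-0.0769), P2RX7 (0.00481 and 0.203), DDIAS (-0.353), ATF4 (0.0101) and MCL1 (-0.0545). Apart from the alternatives that drop or down-weight libraries, the cause was not tested. At these depths 3 counts are about 0.5 to 0.7 CPM, so folds over lower levels are uncertain.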
